A study of Mus musculus with 10 samples.

Results

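The ATAC-seq library labelled Oct4 was set against the library labelled Sox2, over all 21965 gene rows of the deposited table. Of these rows, 11228 reached the minimum signal described below in at least 1 of the 2 libraries. The cells of the Oct4 library were mouse embryonic fibroblasts (MEFs) that had received an Oct4 retrovirus, and those of the Sox2 library had received a Sox2 retrovirus. The Flag library, from MEFs given a Flag control virus, is cited as a background level. All MEFs came from E13.5 ICR embryos carrying green fluorescent protein driven by an Oct4 promoter, were infected with pMXs vectors and were kept in mESC medium. The sources used here give neither the number of embryos nor the time after infection. About 50000 living cells went into each library. The other libraries were from MEFs given Klf4, the Oct4 L80A mutant (Oct4-L80A), Sox2 with Klf4 and Oct4 (SKO), SKO with the mutant in place of Oct4 (SKO-L80A), SKO-L80A together with Gadd45a or in medium with vitamin C, and SKO together with a Brg1 hairpin (SKO+shBrg1). Each of the 10 conditions has 1 library and 2 columns in the table. The 2 columns of a condition were taken as repeat values of that library, so there is no replicate error, and differences are given by their size without a test.

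Oct4, encoded by Pou5f1, is a POU-domain factor, and Sox2 is an HMG-box factor. In pluripotent stem cells they bind side by side at composite DNA motifs and activate each other's genes and those of the wider pluripotency network. Fibroblasts express neither, and both are supplied from outside in reprogramming. ATAC-seq uses a transposase that inserts adapters where DNA is accessible, so its signal measures openness of chromatin and not transcription.

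The library labelled Oct4 had a high signal at the Sox2 gene, which its label does not name. There it had 62.9 and 55.2 (column 1 and column 2), against 75.5 and 87.1 in the Sox2 library and 2.73 and 5.12 in Flag. The comparison is therefore between 2 libraries that are both high at Sox2. The source of the Sox2 signal in the library labelled Oct4 was not tested. At Pou5f1 the signal was 30.8 and 24.2 in the Oct4 library, against 2.34 and 3.03 in the Sox2 library and 0.812 and 1.12 in Flag. Reads from virus inserts and reads from the cells' own copies of Pou5f1 and Sox2 cannot be told apart in this table.

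The deposited signal behaved as a value of the region around a gene's start. Among neighbouring genes whose RefSeq starts lay less than 500 bp apart, 86.7% of 655 pairs had signals within 0.01 of each other on the log2 scale in column 1 of Flag. The share was 55.2% of 105 pairs at 1000 to 2000 bp and 4.58% of 873 pairs at 5000 to 10000 bp. A difference at a gene in the comparisons that follow is thus a difference around its start, and genes that share a start region share their value. None of the 10 genes called below shared its values with another row within 1% in all 20 columns.

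**Figure D1:**
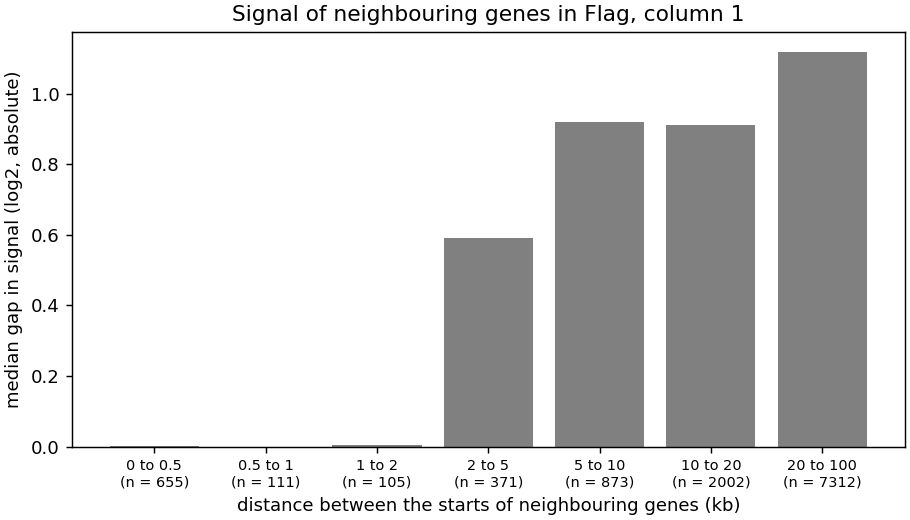
Median absolute gap in log2 signal between neighbouring genes (vertical axis), in column 1 of Flag, by the distance between their starts in kb (horizontal axis, with the number of pairs). The gap is near 0 up to 2 kb and reaches 0.59 at 2 to 5 kb and 0.92 at 5 to 10 kb.

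Signal summed to 212844 and 250920 in the Oct4 columns, against 131439 and 216711 in the Sox2 columns, and the number of reads behind each value is unknown. Differences were taken as Oct4 minus Sox2 on log2(signal + 0.138), column 1 with column 1 and column 2 with column 2. Oct4 lay above Sox2 for the median gene by 0.57 in pair 1 and 0.11 in pair 2, and each difference is given relative to that median. Among cell-type markers, 4 of 7 for fibroblasts reached the minimum signal, as did 3 of 4 for neural cells and 1 of 5 for macrophages, while 0 of 4 did for pluripotent stem cells, 0 of 4 for endothelium and 0 of 4 for epithelium. The markers thus did not set fibroblasts apart from neural cells. Summed over the 4 neural markers, the signal was 25.9 and 41.6 in Oct4, against 17.8 and 33.4 in Sox2 and 16.7 and 28.3 in Flag. None of the 28 markers examined was at 0 in either library. Summed over 7 fibroblast markers, the signal was 67.7 and 76.0 in Oct4, against 42.5 and 65.4 in Sox2. In bulk libraries, a smaller share of cells with an open region and a weaker opening in each cell cannot be told apart.

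The libraries were alike at nearly all genes. A gene was called when the mean of both pairs was at least 2-fold in either direction and the higher library's mean signal reached 6.92, the median of the whole table. By this rule 10 genes were higher in Oct4 than in Sox2, which is 0.0891% of the 11228 rows at the minimum signal, and 0 were lower (0%). The 9 of these described here were Pou5f1, E330017A01Rik, Il7r, 1700012B07Rik, Kcnk7, Ttyh1, C1s1, Gm17349 and Il34. Over the rows at the minimum signal the differences had a median of 0.12 and a standard deviation of 0.17. The gap between the pairs, divided by 2, had a standard deviation of 0.14, and the differences of pair 1 and pair 2 correlated at a Pearson r of 0.192 over these 11228 rows, which share libraries and are not independent. Most of the spread between genes was therefore not shared by the pairs. All 10 called genes had both Oct4 columns above both Sox2 columns once each column was set to its own median, but so did 23.9% of the rows, while 5.64% had both below.

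**Figure D2:**
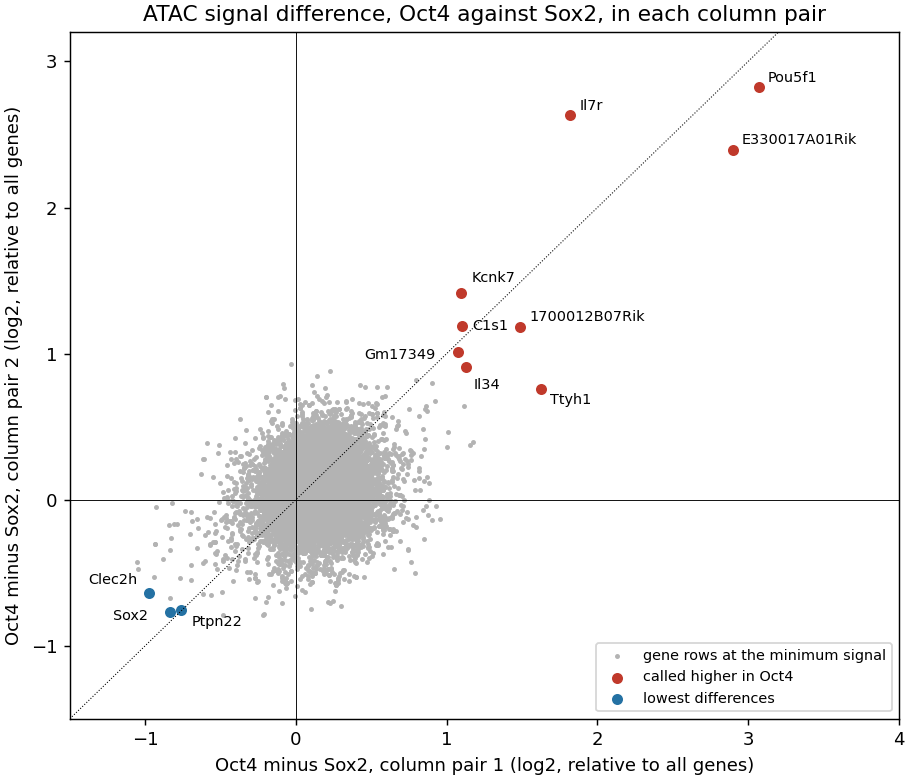
Difference Oct4 minus Sox2 in column pair 2 (vertical) against column pair 1 (horizontal), both on log2(signal + pseudocount) relative to all genes, for rows at the minimum signal. The 9 called genes plotted (red) lie at 0.76 or more in both pairs, above and to the right of most other rows (grey), and Clec2h, Sox2 and Ptpn22 (blue) have the lowest means.

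Pou5f1 (ENSMUSG00000024406, chromosome 17, 35506032 to 35510777), the gene of the added factor, had the largest difference. It was 7.71-fold higher in Oct4 than in Sox2, with log2 differences of 3.07 and 2.82 in the pairs. Its nearest neighbours in the table, the cell-cycle gene Tcf19 and the coiled-coil gene Cchcr1, start 10.8 and 11.0 kb downstream. Tcf19 had 15.1 and 17.0 in Oct4, against 9.70 and 19.2 in Sox2, a difference of -0.11. The high value at Pou5f1 therefore did not extend to the next open start.

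Gdf3 encodes a growth factor of the TGF-beta family made by pluripotent cells. Its signal was 5.31 and 4.64 in Oct4, against 0.614 and 0.912 in Sox2 and 0.933 and 0.585 in Flag. This was not particular to the Oct4 library, since Gdf3 had 10.5 and 6.61 in SKO and 8.39 and 7.94 in SKO-L80A. Oct4-L80A had 1.62 and 2.05. The log2 difference of Oct4 from Sox2 was 2.18, with 2.29 and 2.07 in the pairs. The level in both libraries was under the minimum signal, and Gdf3 is not among the called genes. Nanog, Esrrb and Sall4 did not show this. Nanog, a core homeobox factor, had 0.557 and 1.12 in Oct4, against 0.545 and 0.563 in Sox2. Esrrb, an orphan nuclear receptor, had 2.15 and 2.11 in Oct4, against 2.18 and 3.39 in Sox2. Sall4, a zinc finger factor, had 1.69 and 2.28 in Oct4, against 1.66 and 3.10 in Sox2. All 3 were under the minimum signal.

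Receptor and ligand genes of blood-cell signalling stood among the calls. Il7r (ENSMUSG00000003882, chromosome 15, 9506159 to 9529941) encodes the receptor subunit that binds interleukin 7 on lymphocytes. It had 9.21 and 8.14 in Oct4, against 1.65 and 1.09 in Sox2 and 2.38 and 1.19 in Flag, and was 4.68-fold higher in Oct4 than in Sox2. Il34 (ENSMUSG00000031750, chromosome 8, 110741829 to 110805949) encodes a ligand of the macrophage receptor Csf1r. It had 18.4 and 12.6 in Oct4, against 5.56 and 6.11 in Sox2 and 5.97 and 8.38 in Flag, and was 2.03-fold higher than in Sox2. Csf1r itself had 15.9 and 12.4 in Oct4, against 7.84 and 8.26 in Sox2, a log2 difference of 0.45 that was not called. The 5 macrophage markers summed to 20.02 and 16.7 in Oct4, against 13.2 and 12.5 in Sox2 and 9.15 and 13.1 in Flag. Only 1 of 5 (Csf1r) was at the minimum signal, and Csf1r made up most of each sum. Ptprc and Spi1, also among the 5, went the other way relative to the median gene, at -1.01 and -0.39. The higher sum in Oct4 is therefore not a trait of the set. The part of macrophages in the Il7r and Il34 differences was not tested.

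A serine protease gene was also called. C1s1 (ENSMUSG00000038521, chromosome 6, 124530344 to 124542392) encodes the protease C1s of the classical complement pathway. It had 6.12 and 8.98 in Oct4, against 1.83 and 3.56 in Sox2 and 2.97 and 5.70 in Flag, and was 2.21-fold higher than in Sox2. Here both Sox2 columns lay below their Flag counterparts, while both Oct4 columns lay above them.

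Kcnk7 and Ttyh1 were called as well. Kcnk7 (ENSMUSG00000024936, chromosome 19, 5704471 to 5707984), a member of the KCNK potassium channel family, had 13.6 and 13.8 in Oct4, against 4.19 and 4.71 in Sox2 and 2.72 and 2.94 in Flag. The Oct4 columns were well above the others and 2.38-fold above Sox2. Ttyh1 (ENSMUSG00000030428, chromosome 7, 4119530 to 4135407) encodes a tweety family membrane protein found mainly in the nervous system. It had 20.3 and 16.2 in Oct4, against 4.33 and 8.82 in Sox2 and 3.79 and 5.44 in Flag, a 2.28-fold difference from Sox2 that was 1.62 in pair 1 and 0.76 in pair 2 on the log2 scale.

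Uncharacterised genes completed the calls. E330017A01Rik (ENSMUSG00000055789), which RefSeq lists as a synonym of Ftdc2 on chromosome 16 (58635262 to 58638403), had 8.47 and 7.94 in Oct4, against 0.639 and 1.28 in Sox2 and 0.196 and 0.135 in Flag. It was nearly closed in Flag, somewhat above that in Sox2 and 6.27-fold above Sox2 in Oct4. The predicted gene Gm17349 (ENSMUSG00000091604) had 8.96 and 9.56 in Oct4, against 2.77 and 4.30 in Sox2 and 2.54 and 3.05 in Flag, or 2.06-fold more than in Sox2. 1700012B07Rik (ENSMUSG00000020617, chromosome 11, 109788266 to 109828079) had 10.0 and 8.45 in Oct4, against 2.30 and 3.36 in Sox2 and 3.96 and 5.17 in Flag, or 2.52-fold more than in Sox2. As at C1s1, the Sox2 columns of 1700012B07Rik were the lowest of the 3 libraries.

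**Figure D3:**
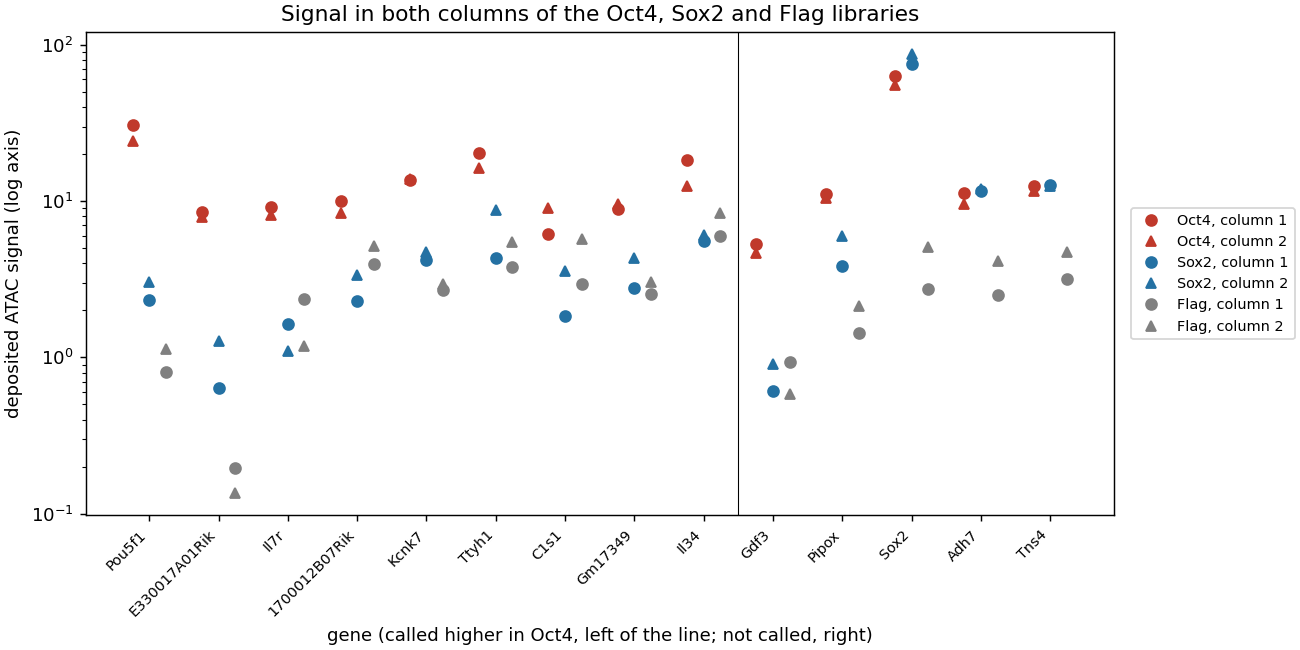
Deposited ATAC signal (log axis) of 9 called genes and of 5 genes that were not called, in column 1 (circles) and column 2 (triangles) of the Oct4 (red), Sox2 (blue) and Flag (grey) libraries. Left of the line both Oct4 columns are above both Sox2 columns, as they also are at Gdf3 and Pipox. With each column set to its own median, so are 23.9% of rows at the minimum signal. Adh7 and Tns4 have about the same deposited signal in Oct4 and Sox2, but relative to the median gene they are at -0.51 and -0.40.

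The called genes did not lie together: 9 of the 10 could be placed on the RefSeq annotation, on 9 different chromosomes. In column 1 of Flag they ranked between the 10.2 and 56.6 percentile of all rows, so none was a strongly open start without the factors. Around the 6 called genes with a start in the promoter table, the 2 neighbours on each side gave 24 genes. Of these, 10 reached the minimum signal, 0 of them were 2-fold different, and their differences ran from -0.25 to 0.75 with a median of 0.11. The highest was Leng9, which starts 30.3 kb downstream of Ttyh1 and had 13.6 and 15.6 in Oct4, against 4.96 and 9.17 in Sox2. Pcnx3 and Map3k11 shared their values, and Tcf19 and Cchcr1 nearly did, so the 10 neighbours are fewer than 10 separate start regions.

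Promoter sequences (RefSeq, GRCm38.p6, 250 bases before to 50 after the start, 5′ to 3′) were searched on both strands, since the regions around these starts carry the difference. The motifs were the Oct4 octamer ATGCAAAT, the Sox core CATTGT, the AP-1 motif TGANTCA, the TEAD motif GGAATG and an Oct-Sox composite made of the Sox core, any base and ATGC. The composite contains the Sox core. Sequences were found for 7 called genes, with 9 promoters in all. The octamer occurred in 0 of these 9 and in 1.74% of all 32851 promoters of that length. The Sox core occurred in 2 of 9, at 1 of the 2 Pou5f1 promoters and within the composite at 1700012B07Rik, and in 12.6% of all promoters. The composite occurred in 1 of 9 and in 0.0609% of all promoters. AP-1 was found in 0 of 9 and TEAD in 2 of 9, against 7.81% and 14.7% of all promoters. Calls could come only from genes at the minimum signal, which have 11492 promoters. Of those, 1.35% held the octamer, 7.04% the Sox core, 0.0522% the composite, 4.43% AP-1 and 11.8% TEAD. These matches describe letters in a short window and are no measurement of binding.

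The promoters of the 2 called genes with the largest differences after Pou5f1, of Ttyh1, and of 1700012B07Rik, which holds the composite, are printed. Pipox is printed too, though it was not called (difference 0.80) and is not among the 9 promoters above. Its promoter holds an octamer, as do 330 of the 20492 promoters of genes in the table. Capitals mark octamer, Sox core and composite matches. The composite at 1700012B07Rik begins at position -39 from the start, and the octamer at Pipox at position -195. In the other 3 promoters no capitals appear, because none of these motifs occurs in them.

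Il7r (chr15:9529827-9530126, minus strand): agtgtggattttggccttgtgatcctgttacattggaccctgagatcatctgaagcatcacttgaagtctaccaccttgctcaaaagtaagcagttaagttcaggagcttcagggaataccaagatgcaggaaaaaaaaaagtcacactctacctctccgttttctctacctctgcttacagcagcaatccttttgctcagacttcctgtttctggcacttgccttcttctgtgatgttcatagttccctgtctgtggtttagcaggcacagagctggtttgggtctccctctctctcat

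E330017A01Rik (chr16:58638354-58638653, minus strand): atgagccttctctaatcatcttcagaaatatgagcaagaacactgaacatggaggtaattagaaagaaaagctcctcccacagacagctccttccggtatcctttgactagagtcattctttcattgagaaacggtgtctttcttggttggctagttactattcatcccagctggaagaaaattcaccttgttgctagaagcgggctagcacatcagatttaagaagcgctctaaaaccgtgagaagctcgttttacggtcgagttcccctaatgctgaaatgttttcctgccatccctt

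Ttyh1 (chr7:4119280-4119579, plus strand): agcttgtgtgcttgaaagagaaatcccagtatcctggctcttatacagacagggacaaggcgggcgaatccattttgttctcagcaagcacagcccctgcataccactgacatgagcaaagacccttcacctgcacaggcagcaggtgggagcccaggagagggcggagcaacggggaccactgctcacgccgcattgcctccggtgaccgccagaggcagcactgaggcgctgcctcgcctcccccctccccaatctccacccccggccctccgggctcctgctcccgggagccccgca

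1700012B07Rik (chr11:109827997-109828296, minus strand): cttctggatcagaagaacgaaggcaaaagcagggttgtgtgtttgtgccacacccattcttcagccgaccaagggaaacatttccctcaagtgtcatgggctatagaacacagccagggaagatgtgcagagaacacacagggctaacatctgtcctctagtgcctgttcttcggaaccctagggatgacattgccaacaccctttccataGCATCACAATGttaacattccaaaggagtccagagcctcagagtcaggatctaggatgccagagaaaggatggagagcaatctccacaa

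Pipox (chr11:77893823-77894122, minus strand): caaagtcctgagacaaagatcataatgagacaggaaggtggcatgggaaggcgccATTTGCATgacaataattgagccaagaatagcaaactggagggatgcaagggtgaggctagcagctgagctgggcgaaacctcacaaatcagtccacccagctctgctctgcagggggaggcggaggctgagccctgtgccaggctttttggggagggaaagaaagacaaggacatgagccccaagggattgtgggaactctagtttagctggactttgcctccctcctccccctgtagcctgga

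The 2-fold threshold left a short tail on either side. Just inside it were C1s1 (1.14), Gm17349 (1.04) and Il34 (1.02), and just outside were Adgrv1 (0.88), an adhesion receptor of sensory hair cells, Pir (0.85), an iron-binding nuclear protein, and Cpa4 (0.81), a carboxypeptidase. Gm17349 and Il34 fell under 2-fold when differences were centred on the rows at the minimum signal (0.93 and 0.90) or with a larger pseudocount (0.98 and 0.99). Pipox, a peroxisomal sarcosine oxidase, had 11.0 and 10.46 in Oct4, against 3.84 and 5.99 in Sox2 and 1.43 and 2.12 in Flag. Its levels stepped up from Flag through Sox2 to Oct4, and its difference from Sox2 was 0.80. With a looser rule of 1.5-fold in both pairs, chosen after the values were seen, 20 genes were higher (0.178% of rows at the minimum signal) and 5 lower (0.0445%). Besides the 10 calls, the higher genes were Adgrv1, Pir, Cpa4, Pipox, Leng9, Filip1, Egln2, S100a2, Asic3 and Rab7b. Egln2, an oxygen-sensing prolyl hydroxylase, had 22.0 and 22.9 in Oct4, against 8.10 and 13.7 in Sox2. S100a2, a calcium-binding protein, had 10.0 and 10.7 in Oct4, against 4.35 and 5.75 in Sox2 and 9.92 and 14.3 in Flag, so both Sox2 columns were below both Flag columns.

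On the lower side the differences were smaller. Clec2h, a C-type lectin, had 5.13 and 5.25 in Oct4, against 6.84 and 7.62 in Sox2, and its difference of -0.81 was the lowest. Sox2 came next at -0.80, with -0.83 and -0.77 in the pairs. Removing the trend with mean signal took Sox2 to -1.09, past 2-fold. Ptpn22, a tyrosine phosphatase of lymphocytes, had 5.02 and 6.15 in Oct4, against 5.77 and 9.67 in Sox2, a difference of -0.76. The other 2 genes lower by 1.5-fold in both pairs were Slc25a21, a mitochondrial carrier (-0.75), and Pls1, which encodes the actin-bundling plastin 1 of epithelial microvilli (-0.63). At all 5 genes both Sox2 columns were above both Flag columns. The genes were chosen for a high value in these same Sox2 columns, so this is not independent of that choice. Sox2 is also the gene of the added factor.

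Genes known from earlier results of these data to be more open in Sox2 than in Flag were open in both libraries. Adh7, a retinol-oxidising dehydrogenase, had 11.3 and 9.63 in Oct4, against 11.6 and 11.97 in Sox2 and 2.51 and 4.12 in Flag. Tns4, a focal adhesion protein, had 12.5 and 11.6 in Oct4, against 12.6 and 12.5 in Sox2 and 3.15 and 4.71 in Flag. Shroom3, an actin regulator of cell shape, had 14.3 and 14.5 in Oct4, against 16.9 and 15.1 in Sox2 and 3.85 and 6.65 in Flag. As deposited, each of these signals was close in Oct4 and Sox2 and more than 2-fold its level in Flag. Relative to the median gene the Oct4 minus Sox2 differences were -0.51, -0.40 and -0.49, and without centring they were -0.17, -0.06 and -0.15. The centred values all lay under -0.31, the 1st percentile of rows at the minimum signal, so on that scale these genes were among the lowest in Oct4. Agbl1, a deglutamylase, had 8.27 and 9.83 in Oct4, against 8.41 and 6.91 in Sox2, with a difference of -0.10 that turned to 0.24 without centring. These genes stood out in Sox2 against Flag in the same Sox2 columns, so a value below Sox2 is not independent of that choice.

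Gene lists moved little as groups. Of 18 lists, 16 had 0 members called, and the 9 lists with at least 10 members at the minimum signal had medians between 0.07 and 0.17, beside 0.12 for all rows at the minimum signal. The fibroblast identity list, with 33 of 50 members at that level, had 0 calls and a median of 0.10. Col1a1, which encodes a chain of type I collagen, had 18.6 and 18.7 in Oct4, against 12.2 and 16.1 in Sox2, a difference of 0.07. Twist1, a mesenchymal helix-loop-helix factor, was at -0.03, and Prrx1, a mesenchymal homeobox factor under the minimum signal, at 0.39. The matrix genes Fbln2 and Lox were at 0.50 and 0.25, with both Oct4 columns and both Sox2 columns of Lox below those of Flag, at 10.1 and 11.9, against 4.73 and 11.1 in Sox2 and 15.3 and 26.5 in Flag. The surface marker Thy1 was under the minimum signal, with 3.57 and 5.89 in Oct4, against 1.88 and 3.12 in Sox2.

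The contractile and muscle list had 0 of 17 members called and a median of 0.17. Its highest member was Acta2, the actin of myofibroblasts, with 25.4 and 24.7 in Oct4, against 13.1 and 14.1 in Sox2 and 9.14 and 15.6 in Flag, a difference of 0.53. In the neural list 0 of 13 were called (median 0.12). Bex3, a brain-expressed X-linked gene, was at 0.61 and Map2, a neuronal microtubule protein, at 0.47. In the epithelial and MET (mesenchymal-to-epithelial transition) list 0 of 9 were called, with a median of 0.03 and opposite signs in the pairs (0.06 and -0.16). The junction genes Cdh1 and Epcam and the keratin Krt8 were under the minimum signal in both libraries. In the pluripotency network list 1 of 13 members was called, Pou5f1, and in the macrophage and blood list 1 of 3, Il7r, beside 0.0891% of all rows at the minimum signal. These are single genes and show nothing about the lists as groups. The trophectoderm list had 0 of 7 called and a median of 0.28, its highest member being Ascl2, a placental helix-loop-helix factor, at 0.60. The endoderm, endothelial, stratified epithelium, germline and cartilage lists had 0 calls among 3 to 9 members each.

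Chromatin regulators and housekeeping genes gave 0 calls. Of the Brg1 complex members 25 of 26 reached the minimum signal (median 0.07), and Smarca4, which encodes Brg1, was at 0.12. The heterochromatin and DNA demethylation list had 32 of 36 members at that level and a median of 0.15, and Gadd45a, a stress-response gene, was at 0.06. Klf4, the reprogramming factor not named in either label, had 18.7 and 19.8 in Oct4, against 10.8 and 19.7 in Sox2, a difference of 0.06. The housekeeping list had a median of 0.13, with Actb at 0.02 and Gapdh at -0.02. Among 22 families taken by symbol, 18 had at least 5 members at the minimum signal, with medians between -0.04 for Sox genes and 0.24 for serpins. Only the POU genes (Pou5f1, 1 of 6 at the minimum signal) and the interleukins and their receptors (Il7r and Il34, 2 of 19) held a call. The share over all rows at that level was 0.0891%. So few genes show nothing about the families as groups. Pou6f1, the POU gene next after Pou5f1, had 10.8 and 13.0 in Oct4, against 4.06 and 8.03 in Sox2, a difference of 0.69. Small medians depended on the scaling: with the trend with mean signal removed, that of the housekeeping list was -0.02 and that of the fibroblast list 0.04, and centring on the rows at the minimum signal gave 0.01 and -0.01.

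**Figure D4:**
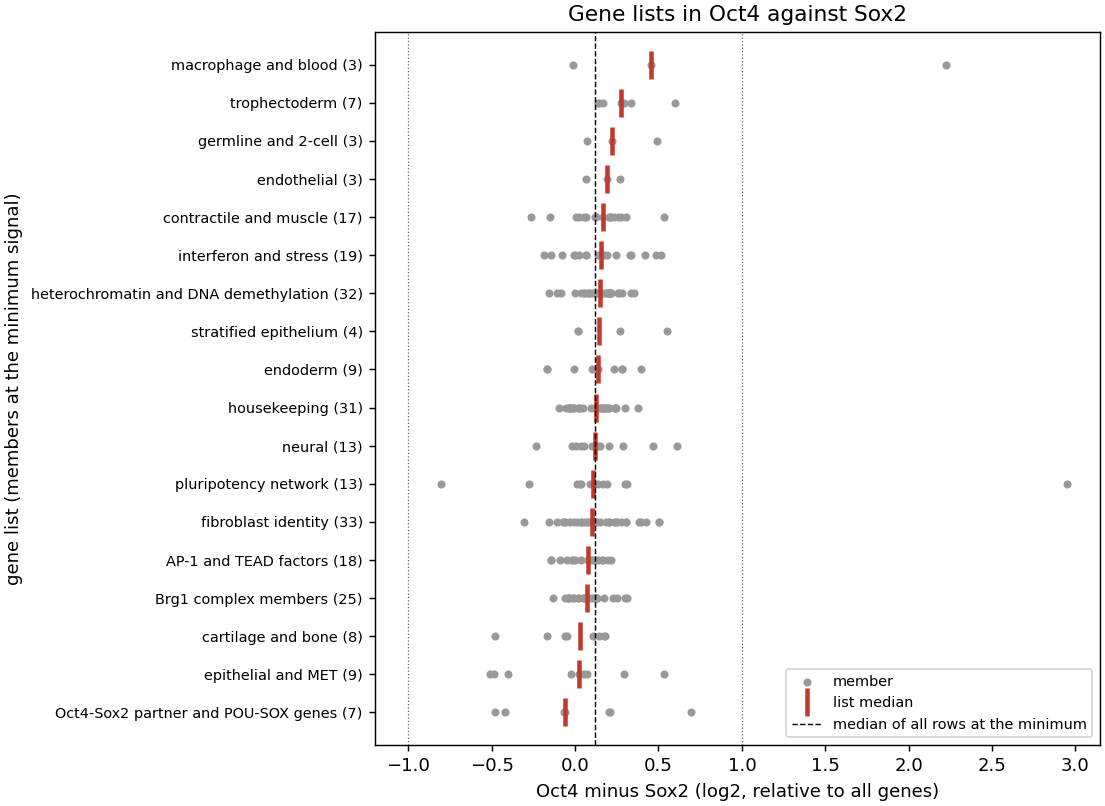
Difference Oct4 minus Sox2 (log2, relative to all genes) of each member at the minimum signal (grey points) and the list median (red bars), for 18 gene lists with the number of members shown. The dashed line is the median of all rows at the minimum signal, 0.12, the dotted lines mark 2-fold, and only Pou5f1 and Il7r lie outside them.

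The called genes were then followed in libraries that took no part in choosing them. In Oct4-L80A against Flag, 1 of the 10 was called higher, Pou5f1, beside 0.0192% of rows at the minimum signal. This count says little, because 8 of the 10 were under the minimum signal in both libraries and could not be called whatever their difference, among them E330017A01Rik at 1.42. Without Pou5f1 the other 9 had differences from -0.74 to 1.42 with a median of -0.27, and 4 of 9 were above the median gene. In SKO against Klf4, 5 of the 10 were called higher, beside 1.16% of rows, Ttyh1, Gm17349, E330017A01Rik and Pou5f1 among them, and 9 of 10 were above the median gene. In SKO against Flag, Kcnk7 joined these to give 6 of 10, beside 2.2% of rows, and 10 of 10 were above the median gene. SKO cells received Oct4 themselves, so a call of Pou5f1 was fixed in advance. Without Pou5f1, 4 of 9 were called higher over Klf4 and 5 of 9 over Flag. These comparisons share the Flag or the SKO library and are not independent of each other. SKO differs from Klf4 by Sox2 as well as Oct4, and from Flag by Klf4 too. The counts therefore cannot tell what goes with Oct4 from what goes with Sox2. Agbl1, Shroom3, Adh7 and Tns4, not called in Oct4 against Sox2, were at 2.11, 1.36, 1.24 and 1.10 in SKO against Klf4.

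Levels of Ttyh1, Kcnk7, E330017A01Rik and Gm17349 stood out in SKO and SKO-L80A. Ttyh1 had 34.4 and 21.9 in SKO and 30.9 and 29.0 in SKO-L80A, but 2.94 and 6.81 in Oct4-L80A and 5.52 and 5.51 in Klf4. Kcnk7 had 26.2 and 17.3 in SKO and 23.6 and 21.0 in SKO-L80A, but 2.19 and 3.503 in Oct4-L80A, with Klf4 between at 6.42 and 9.71. For each of these genes, both columns of SKO and of SKO-L80A were above both columns of Oct4-L80A. E330017A01Rik had 17.3 and 11.7 in SKO and 12.1 and 12.1 in SKO-L80A, but 0.672 and 0.508 in Oct4-L80A and 0.795 and 0.302 in Klf4. Gm17349 had 12.7 and 10.1 in SKO and 11.999 and 11.4 in SKO-L80A, but 1.83 and 2.26 in Oct4-L80A and 3.17 and 3.87 in Klf4. Relative to Flag, Klf4 was at 1.41 for Kcnk7, past 2-fold, so a higher signal at Kcnk7 was not limited to libraries labelled with Oct4. For E330017A01Rik it was at 1.06, with 1.36 and 0.76 in the pairs, but there both libraries were far under the minimum signal.

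Il7r, Il34, 1700012B07Rik and C1s1 were less far above Flag in SKO. Il7r was highest in the Oct4 library of all 10 conditions in both columns, with 6.37 and 3.80 in SKO and 2.08 and 3.74 in Oct4-L80A. Il34 had 20.6 and 10.7 in SKO and 3.39 and 5.89 in Oct4-L80A. 1700012B07Rik had 12.7 and 5.70 in SKO and 1.68 and 3.29 in Oct4-L80A. Relative to Flag these 3 genes were at 0.94, 0.53 and 0.36 in SKO, and C1s1 at 0.94, all under 2-fold. In the Oct4 library Il7r was at 2.07, but Il34, 1700012B07Rik and C1s1 were also under 2-fold over Flag, at 0.89, 0.80 and 0.63. In the Sox2 library Il7r, Il34, 1700012B07Rik and C1s1 were below Flag, at -0.21, -0.18, -0.59 and -0.57. Differences between genes in this respect were not tested.

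The exchange of Oct4 for the mutant inside SKO changed little at the called genes. In SKO-L80A against SKO, 1 of 10 was called higher, Pou5f1, beside 0.0158% of rows. The other 9 genes lay between -0.24 and 0.25 with a median of 0.04. At the Sox2 gene SKO-L80A had 38.5 and 51.8 and Oct4-L80A 2.37 and 5.47, against 2.73 and 5.12 in Flag. Where Oct4 and Oct4-L80A differ, the mutation and the Sox2 signal cannot be told apart.

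**Figure D5:**
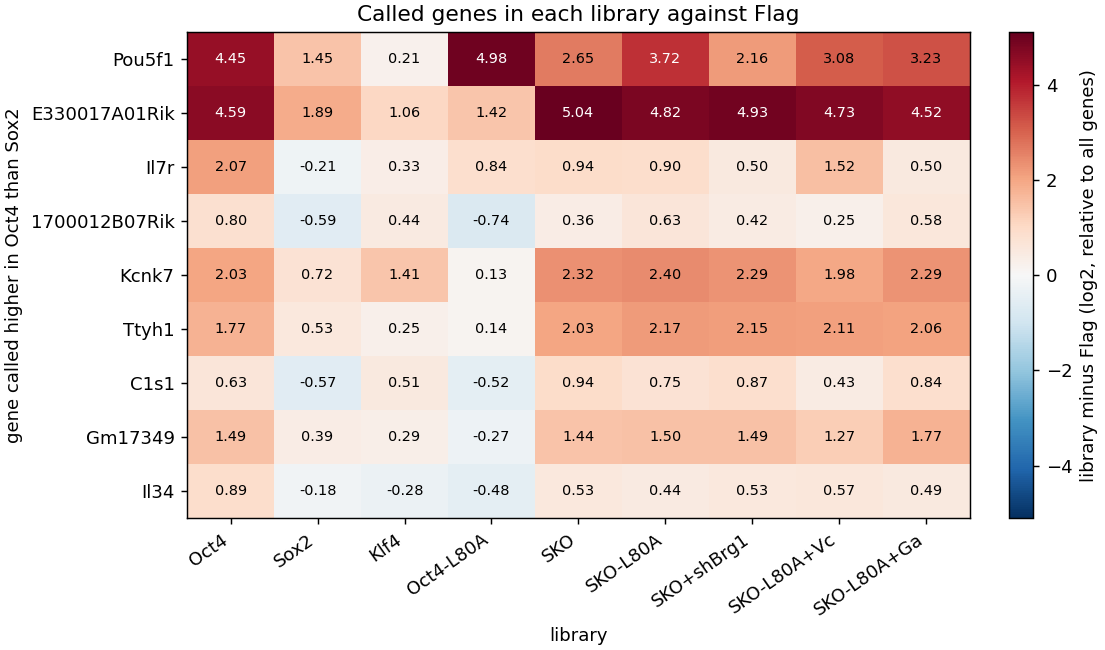
Difference of each library from Flag (log2, relative to all genes, mean of both column pairs) for 9 genes called higher in Oct4 than Sox2. Kcnk7, Ttyh1 and Gm17349 are at 1.27 or more in Oct4 and in all 5 libraries that include SKO or SKO-L80A, and between -0.27 and 0.14 in Oct4-L80A.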

How the data were processed

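The data were 1 table of ATAC signal that the authors deposited, a density per Ensembl gene row in 20 columns, 2 for each of 10 libraries. Per the submitters' processing notes the build was mm10 and the tools included Trimmomatic 0.35, cutadapt 1.13, Bowtie2 2.2.5, SAMtools 1.3.1, MACS2 2.1.0 and bedtools 2.25.0, but no source used here gives the counting window or the scaling of the libraries. Read numbers are unknown, so no counting interval was computed, and a library with more signal over background cannot be separated from a deeper one. With 1 library per condition no test was made.

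Differences were computed in Python 3.11.15 with pandas 2.3.3 on log2(signal + 0.138), the pseudocount being the 10th percentile of values above 0, per column pair, minus the median of all rows in that pair, and averaged. Calls needed 2-fold and a mean signal of 6.92 in the higher library. The procedure was tested on simulated data. Named genes were the largest changes in both pairs (at most 12 per direction), up to 3 called genes per list, a fixed group of 30, and the 3 on each side of the threshold; since the calls were few, all but 1, which is not reported here, are named, and genes of the looser rule were added after their values were seen. The members, lists and the fixed group were chosen with earlier results of these data known. Symbols were matched to RefSeq on GRCm38.p6, with 20788 matched and 511 found only as synonyms. Alternatives were other pseudocounts, minimum signals, centrings and normalisations, and each column pair alone.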

Additional observations from a re-analysis of the deposited data

How the results depend on the processing

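The count of 10 higher and 0 lower genes stayed within 1.5 times with pseudocounts 4 times larger (8 higher) or smaller (10), quantile normalisation (9), 2-fold in both pairs (7), pair 2 alone (8) and centring on the rows at the minimum signal (8, added after the data were seen). Every higher gene under these settings was among the 10. Without a minimum signal the counts were 44 higher and 393 lower, since nearly closed rows entered. A minimum 2 times larger left 3 higher genes. Without centring 25 were higher. Removing the trend with mean signal by lowess gave 9 higher and 1 lower, and pair 1 alone gave 14 higher and 2 lower. Rules added after the data were seen gave 20 higher and 5 lower (1.5-fold in both pairs) and 2681 and 633 (both columns above or below). For the called genes in other libraries, the counts stayed within 1.5 times without centring and in each pair alone, except that 0 were called in SKO-L80A against SKO in pair 1. The cause of these changes was not tested where none is named. Of 80 values of the called genes under alternatives, 71 stayed at 2-fold or more, the lowest being 0.76. Of 480 values of genes and lists, 147 moved by more than the spread between pairs and 0 called genes changed sign. No paired analysis was possible because each condition has 1 library and no result comes from a test.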

Other observations

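Genes related to the calls were examined after their values were seen. C1ra, the partner protease of C1s, starts 29.7 kb from C1s1 and had 3.37 and 3.47 in Oct4, against 0.941 and 2.65 in Sox2. Its difference of 0.70, under the minimum signal, came mostly from pair 1, with 0.26 in pair 2. The other neighbours of C1s1 were lower, with C1rl at 0.19, C1rb at 0.21 and C1s2 at -0.002. C1qa, C1qb and C1qc, under the minimum signal, were at -0.18, -0.19 and -0.22. Of 37 complement genes, 9 reached the minimum signal, with a median of 0.11, beside 0.12 for all rows at that level.

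Partners of the called receptor and ligand did not pass 2-fold. Csf1, the other ligand of Csf1r, had 12.3 and 13.46 in Oct4, against 7.77 and 12.1 in Sox2, a difference of 0.06. Il7, the ligand of Il7r, had 7.77 and 14.8 in Oct4, against 5.96 and 12.5 in Sox2, and was at -0.03. Il2rg, the shared receptor chain that signals with Il7r, was nearly closed, with 0.345 and 0.461 in Oct4, against 0.420 and 0.637 in Sox2.

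Of the Kcnk and Ttyh families, put together around the called genes Kcnk7 and Ttyh1, 8 genes reached the minimum signal. The 2 calls chose the families, so their count is not to be read against the 0.0891% called among all rows at that level. Ttyh2 had 11.99 and 16.1 in Oct4, against 5.50 and 11.96 in Sox2, a difference of 0.42, and Ttyh3 was at -0.01. The median of the 8 genes was 0.05, beside 0.12 for all rows.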
